A study of Mus musculus with 12 samples.

Results

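The hormone INSL3 and a set of hormone receptors were followed in bulk RNA-seq of fetal mouse testes. The 7 genes were chosen by their symbols, out of 24470 genes in the count table: the Leydig peptide hormone gene Insl3, its receptor gene Rxfp2, the neighbouring gene Jak3, the trophic hormone receptor genes Lhcgr, Prlr and Crhr1, and the renin gene Ren1. All 7 passed the filter on low counts, which kept 15572 genes for testing. RNA came from testes at E14.5, in 6 control pools (genotype Nr2f2 f/f) and 6 cKO pools, in which the same floxed alleles were combined with Wt1 CreER, a tamoxifen-dependent Cre driven from Wt1 in somatic progenitors of the gonad. Tamoxifen had been given to the pregnant females at E11.5 and E12.5. Each pool held 3 testes, so single embryos were not resolved. The comparison asks how these RNAs differ when Nr2f2, which encodes a nuclear receptor of interstitial progenitor cells, is deleted before fetal Leydig cells differentiate.

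Fetal Leydig cells lie between the testis cords and make androgens and INSL3. INSL3 is a secreted peptide of the relaxin family that acts through the receptor RXFP2 on the gubernaculum, the ligament that draws the testis down during descent. Luteinizing hormone, prolactin and corticotropin-releasing hormone act on steroidogenic cells through the receptors LHCGR, PRLR and CRHR1. JAK3 is a kinase used by the cytokine receptors of blood cells that share the common gamma chain, and its gene matters here because its last exon runs through Insl3.

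Library totals ran from 7044531 to 39965574 counts in controls and from 7322959 to 59404778 in cKO. Levels are given as CPM (counts of a gene per 1000000 counts of its library), with library totals scaled by the trimmed mean of M values (TMM). Nr2f2 lay between 163 and 186 CPM in controls and between 50.2 and 118.6 CPM in cKO, so Nr2f2 RNA remained in every cKO pool, at levels that differed between pools. Xist, the RNA of the inactive X chromosome, was above 100 CPM in control 1 (891 CPM) and in cKO 3, cKO 5 and cKO 6 (304 to 507 CPM), against 5.15 to 7.68 CPM in the other 8 libraries. Y-linked RNAs were present in all 12 libraries, at summed levels of 197 to 445 CPM in controls and 225 to 318 CPM in cKO. The libraries with high Xist had the lowest such sums of their groups. These were 197 CPM in control 1 and 258, 225 and 232 CPM in cKO 3, cKO 5 and cKO 6. Whether a pool held an XX gonad is not given by the labels and was not tested. Ovarian markers summed to 9.11 to 168.6 CPM in controls and 14.7 to 117.5 CPM in cKO. Results are therefore also given for the 8 libraries with low Xist, 5 control and 3 cKO. Over all 12 libraries edgeR called 0 of the 4 ovarian markers and DESeq2 0, with 0 at an unadjusted p under 0.05. Of all genes, edgeR called 8.13% there and DESeq2 11.6%. In the 8 libraries with low Xist 3 of these markers were higher in cKO, where 3.68% of all genes were higher. They were Foxl2 (log2 fold change 1.45, edgeR adjusted p 0.00958), Fst (0.62, 0.0216) and Bmp2 (0.67, 0.0379). The part of these markers in the results was not tested. Markers of Sertoli cells (386 to 820 CPM summed in controls) and of germ cells (749 to 1315 CPM) were present, as the tissue label says. The labels do not say whether pools came from separate litters, so p-values measure the spread between these pools.

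Insl3 and Jak3 lie on the same strand of chromosome 8, in the mm10 (GRCm38) build. Jak3 spans chr8:71676383-71690577 and Insl3 spans chr8:71689252-71690577, so both genes end on the same base in the deposited table. In the GENCODE annotation of GRCm38, exon 2 of Insl3 (404 bases) coincides with the last exon, exon 25, of a Jak3 transcript, in which it lies after the coding region. That leaves 219 of the 623 exonic bases of Insl3 (35.2%) to Insl3 alone, against 4948 exonic bases (92.5%) for Jak3. The coding part of Insl3 exon 1 is shown because only this gene's exons cover it, with the start codon in capitals (chr8:71689258-71689432, plus strand, GRCm38).

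Insl3 exon 1, coding part: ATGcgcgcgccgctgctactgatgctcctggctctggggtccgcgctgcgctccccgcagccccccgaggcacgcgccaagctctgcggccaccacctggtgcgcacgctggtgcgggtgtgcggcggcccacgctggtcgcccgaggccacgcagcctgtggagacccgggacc

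Read pairs that touch both genes equally are by default left out by the counting program, and the study's methods name no option that changes this. How such pairs were assigned was not tested, and the same counting was applied to control and cKO libraries.

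**Figure D1:**
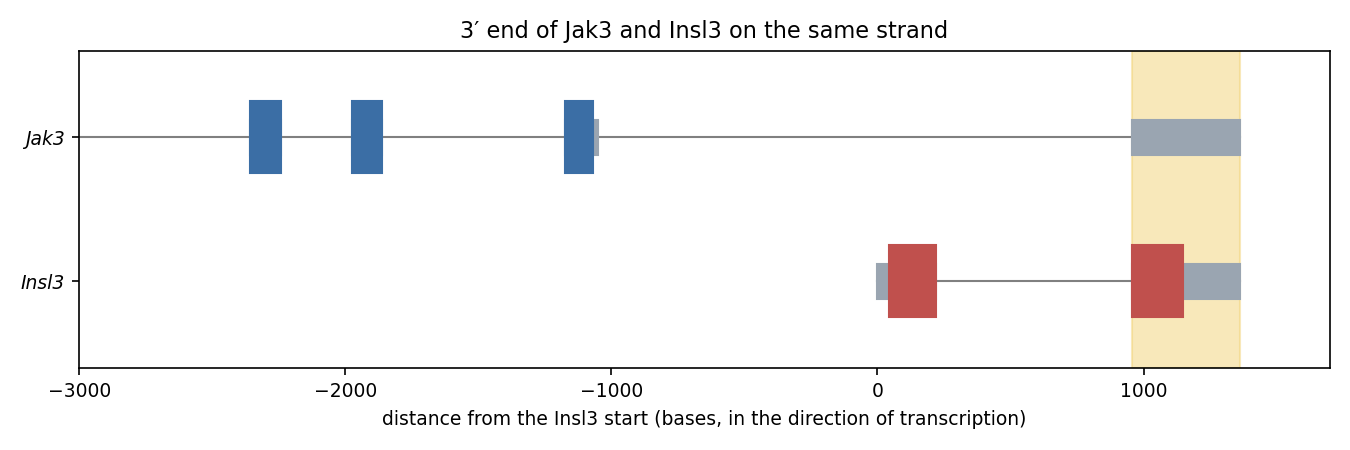
Exons of Insl3 and the 3′ end of Jak3, drawn to scale against the distance in bases from the annotated Insl3 start (tall boxes: coding, low boxes: untranslated, line: intron, both genes read from left to right). The shaded 404 bases are exon 2 of Insl3 and also the last exon of Jak3, and only the 219 bases of exon 1 belong to Insl3 alone.

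The bases upstream of Insl3 and Lhcgr are shown because both RNAs fell in cKO and because both stretches hold short motifs that nuclear receptors are known to bind. RefSeq promoters (GRCm38.p6) were found for all 7 genes, 3 of them for Prlr, and 250 bases before each start were searched on both strands for AGGTCA (the half-site of many nuclear receptors), AAGGTC (the core of the site of NR5A1, the master regulator of steroidogenic cells) and TGACGTCA (the cAMP response element). AAGGTC and AGGTCA overlap wherever a site reads AAGGTCA. The 200 bases from 250 to 51 before the start are printed, with the motifs in capitals (Insl3: chr8:71689002-71689201, plus strand; Lhcgr: chr17:88792065-88792264, minus strand).

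Insl3 upstream: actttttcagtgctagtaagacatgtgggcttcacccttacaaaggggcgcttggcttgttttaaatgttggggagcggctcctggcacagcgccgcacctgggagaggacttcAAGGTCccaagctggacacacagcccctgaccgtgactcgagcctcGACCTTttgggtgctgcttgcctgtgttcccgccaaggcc

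Lhcgr upstream: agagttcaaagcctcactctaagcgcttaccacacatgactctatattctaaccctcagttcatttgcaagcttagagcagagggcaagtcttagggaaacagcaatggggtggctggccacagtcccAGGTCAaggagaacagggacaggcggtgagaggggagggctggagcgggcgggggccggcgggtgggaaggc

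Insl3 held 2 copies of AAGGTC, at 136 to 131 bases before the start and, on the opposite strand as GACCTT, at 90 to 85 bases before it. Lhcgr held AGGTCA once, at 122 to 117 bases before its start. Distances are from the start in the RefSeq table, which for Lhcgr lies upstream of the start of the deposited interval. None of the 3 motifs was found in these windows of Jak3, Rxfp2, Prlr, Crhr1 or Ren1. Among 32851 promoters searched in the same way, 14.02% held AGGTCA, 10.58% held AAGGTC and 1.546% held TGACGTCA at least once, and the share with 2 copies was not counted.

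Insl3, Lhcgr and Ren1 were lower in cKO testes, by 5.08-fold, 1.75-fold and 2.90-fold. Jak3 and Crhr1 differed by 1.44-fold and 1.63-fold, in opposite directions, without passing the test in all 12 libraries, and Rxfp2 and Prlr did not pass it either. Thus 3 of the 7 genes were called lower and 0 higher at an adjusted p under 0.05 by edgeR's quasi-likelihood test, adjusted over all genes tested. At an unadjusted p under 0.05 the same edgeR fit adds Jak3 as higher (0.00985) and Crhr1 as lower (0.00875). Of all 15572 genes tested 8.13% were called, 4.85% lower and 3.28% higher. DESeq2 called 4 of the 7 lower and 1 higher, the additional genes being Crhr1 and Jak3, where it called 11.6% of all genes, 6.27% lower and 5.28% higher. In the 8 libraries with low Xist edgeR called Insl3, Lhcgr and Ren1 lower and Jak3 higher, where it called 7.08% of all genes, 3.39% lower and 3.68% higher. In bulk RNA, fewer cells of a type and less RNA per cell cannot be told apart.

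**Figure D2:**
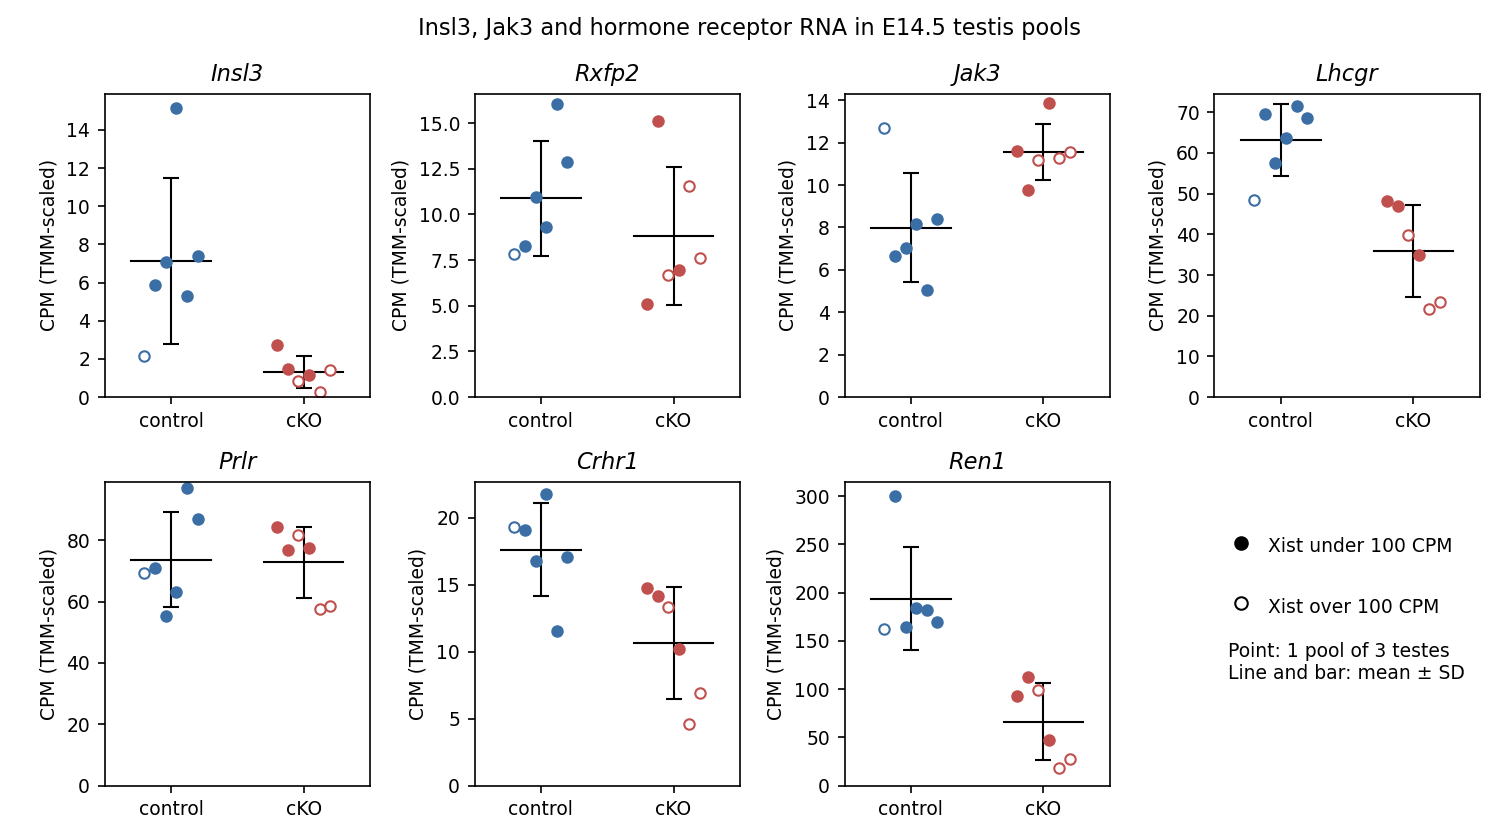
CPM of the 7 genes in each library, from 0 on a linear axis, in control (blue) and cKO (red). Points are pools of 3 testes, open where Xist is over 100 CPM, with lines and bars for the mean ± SD; the groups are separate for Lhcgr and Ren1, nearly separate for Insl3, and overlap for the other genes.

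Insl3, the Leydig peptide hormone gene, ranged from 2.14 through a median of 6.46 to 15.2 CPM in controls and from 0.271 through 1.30 to 2.74 CPM in cKO. The groups met at 1 library on each side: control 1, which also had the highest Xist, was the lowest control, cKO 1 was the highest cKO, and the other 5 cKO pools lay under every control. Mean levels were 7.15 ± 4.35 CPM (SD, n = 6) in control and 1.32 ± 0.822 CPM (SD, n = 6) in cKO. The log2 fold change was -2.35 ± 0.44 (SE), with an edgeR adjusted p of 0.00434. Ordered by log2 fold change, Insl3 stood at place 2 from the lowest of all 15572 genes tested. The log2 fold change over the 8 libraries with low Xist was -2.18, with an edgeR adjusted p of 0.00910.

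Counting error was set beside this gap by exact Poisson 95% intervals. The cKO library with the least Insl3, cKO 5, held 2 counts, which gives 0.271 CPM with an interval from 0.0329 to 0.980 CPM. The lowest control, control 1, held 79 counts, with an interval from 1.69 to 2.66 CPM. The intervals of cKO 1 (2.16 to 3.43 CPM), cKO 2 (0.911 to 2.20 CPM) and cKO 6 (1.14 to 1.76 CPM) overlapped that of control 1, and those of cKO 3, cKO 4 and cKO 5 lay under it. In control 4, the highest library, 322 counts give 13.5 to 16.9 CPM. These intervals cover counting error only, since reads were amplified by PCR.

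Rxfp2, the INSL3 receptor gene, ranged from 7.82 through 10.1 to 16.1 CPM in controls and from 5.09 through 7.29 to 15.1 CPM in cKO. The groups overlapped widely, although 4 of the 6 cKO pools lay under every control. Its log2 fold change was -0.32 ± 0.25 (SE), with an edgeR adjusted p of 0.454. Rxfp2 spans chr5:150018675-150082186 on the plus strand. An exon of Gm42557 overlaps it on the opposite strand, from which reads were separated by stranded counting. Other relaxin family genes were scarce. Of the 7 listed (Rln1, Rln3, Insl5, Insl6, Rxfp1, Rxfp3 and Rxfp4), only Insl6 was tested, at 0.968 ± 0.291 CPM in control and 1.04 ± 0.271 CPM in cKO (SD, n = 6), with a log2 fold change of 0.04 and an edgeR adjusted p of 0.937.

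Jak3 ranged from 5.05 through 7.59 to 12.7 CPM in controls and from 9.78 through 11.4 to 13.9 CPM in cKO. Control 1 held the highest control level and overlapped the cKO pools, and the other 5 controls, at 8.39 CPM or less, lay under every cKO pool. The means were 8.0 ± 2.59 CPM in control and 11.5 ± 1.32 CPM in cKO (SD, n = 6). The log2 fold change was 0.52 ± 0.18 (SE), with an edgeR adjusted p of 0.0836. Without control 1 it was 0.72 with an edgeR adjusted p of 0.00274, in a fit that called 10.5% of all genes lower and 9.44% higher. The 8 libraries with low Xist, which also lack control 1, gave 0.76 with an edgeR adjusted p of 0.0171.

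Of 6 macrophage markers (Csf1r, Cx3cr1, Adgre1, Cd68, C1qa and Ptprc), 2 rose, namely Csf1r (log2 fold change 0.44, edgeR adjusted p 0.00749) and Cx3cr1 (0.92, edgeR adjusted p 0.00185), both without overlap between groups, where 3.28% of all genes were called higher and 2.39% were higher without overlap. DESeq2 called 4 of the 6 higher (5.28% of all genes), Adgre1 (adjusted p 0.0127) and C1qa (adjusted p 0.0152) in addition. The sum of all 6 ran from 33.3 to 44.4 CPM in controls and from 48.1 to 59.8 CPM in cKO. Lymphoid markers were near 0, at summed levels of 0.765 to 1.30 CPM in controls and 0.926 to 1.42 CPM in cKO. The part of either cell type in the Jak3 level was not tested. Among 8 receptor genes of the common gamma chain family, 5 were tested and 1 was called (4.85% of all genes were lower and 3.28% higher): Il15ra, a receptor subunit for interleukin 15, fell by 1.11 on the log2 scale (edgeR adjusted p 0.0340), with a log2 fold change of -0.93 in the low-Xist libraries (edgeR adjusted p 0.0667). The gene of the common gamma chain itself, Il2rg, had a log2 fold change of 0.21 (adjusted p 0.345 by edgeR).

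Insl3 was also compared with Jak3 within each library, as log2 of Insl3 CPM over Jak3 CPM with 0.5 added to each. The ratio ran from -2.32 to 0.86 in controls and from -3.93 to -1.90 in cKO. Control 1 lay within the cKO range, and 5 of the 6 cKO pools were under every control. The mean ratio was -0.29 ± 1.07 in control and -2.85 ± 0.70 in cKO (SD, n = 6), a difference of -2.55 (two-sided exact permutation p = 0.00433 over 924 splits).

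Lhcgr encodes the receptor for luteinizing hormone, which signals through cyclic AMP. Its RNA ranged from 48.5 through 66.2 to 71.6 CPM in controls and from 21.7 through 37.4 to 48.2 CPM in cKO. The groups did not overlap, as was so for 3.13% of all genes tested in the lower direction and 2.39% in the higher, but control 1 and cKO 1 were almost equal at 48.5 and 48.2 CPM. The means were 63.2 ± 8.82 CPM in control and 35.8 ± 11.4 CPM in cKO (SD, n = 6). Lhcgr fell by 0.81 ± 0.18 (SE) on the log2 scale, with an edgeR adjusted p of 0.0146. Over the 8 libraries with low Xist it fell by 0.61, with an edgeR adjusted p of 0.0126. The gene spans chr17:88741549-88791976 on the minus strand, and no exon of another gene overlaps it.

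Prlr, the prolactin receptor gene, ranged from 55.3 through 70.1 to 96.9 CPM in controls and from 57.7 through 77.1 to 84.4 CPM in cKO. No cKO pool lay outside the control range. The means were 73.7 ± 15.4 CPM and 72.7 ± 11.7 CPM (SD, n = 6), and the log2 fold change was -0.01 ± 0.14 (SE), with an edgeR adjusted p of 0.976. Its direction was not fixed, since it was 0.11 in the 8 libraries with low Xist. Prlr spans chr15:10177238-10349180 on the plus strand and shares 203 exonic bases with Gm21973.

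Crhr1, the receptor gene for corticotropin-releasing hormone, ranged from 11.6 through 18.1 to 21.8 CPM in controls and from 4.61 through 11.8 to 14.8 CPM in cKO. Control 5 held the lowest control level and lay among the cKO pools, of which 3 were under every control. The means were 17.6 ± 3.47 CPM in control and 10.7 ± 4.17 CPM in cKO (SD, n = 6). The log2 fold change was -0.71 ± 0.23 (SE), with an edgeR adjusted p of 0.0782. DESeq2 (adjusted p 0.0269) and limma-voom (adjusted p 0.0435) called it lower. With low-Xist libraries alone the log2 fold change was -0.42, with an edgeR adjusted p of 0.172. Crhr1 spans chr11:104132781-104175523 on the plus strand.

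Ren1 encodes renin, the protease that starts the angiotensin cascade by cutting angiotensinogen. Its RNA ranged from 161.8 through 175.7 to 300.4 CPM in controls and from 18.2 through 70.3 to 112.8 CPM in cKO. The groups did not overlap, and control 2 stood far above the other 5 controls, which lay between 161.8 and 184.4 CPM. Within cKO the spread was wide, with 18.2 and 27.8 CPM in cKO 5 and cKO 6, which also had the least Nr2f2 and were among the libraries with high Xist, while cKO 3, also with high Xist, was at 99.0 CPM. The means were 193.7 ± 53.0 CPM in control and 66.4 ± 40.3 CPM in cKO (SD, n = 6). Ren1 fell by 1.54 ± 0.37 (SE) on the log2 scale, with an edgeR adjusted p of 0.0194, at place 27 from the lowest of all genes tested. Among low-Xist libraries it fell by 1.25, with an edgeR adjusted p of 0.0214.

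Ren1 spans chr1:133350674-133360320 on the plus strand. Some mouse strains carry a near-identical copy of renin, Ren2, which was not analysed here and whose reads could be counted at Ren1. Renin is also made by cells of vessel walls, and mural markers (Rgs5, Cspg4, Pdgfrb and Notch3) summed to 265 to 530 CPM in controls and 240 to 412 CPM in cKO. edgeR called 0 of these 4 markers, where it called 4.85% of all genes lower and 3.28% higher. In the edgeR fit 1 marker had an unadjusted p under 0.05, and DESeq2 called 1 lower, beside 6.27% of all genes. In both cases the marker was Pdgfrb (log2 fold change -0.58, edgeR adjusted p 0.0535). The part of mural cells in the Ren1 level was not tested.

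**Figure D3:**
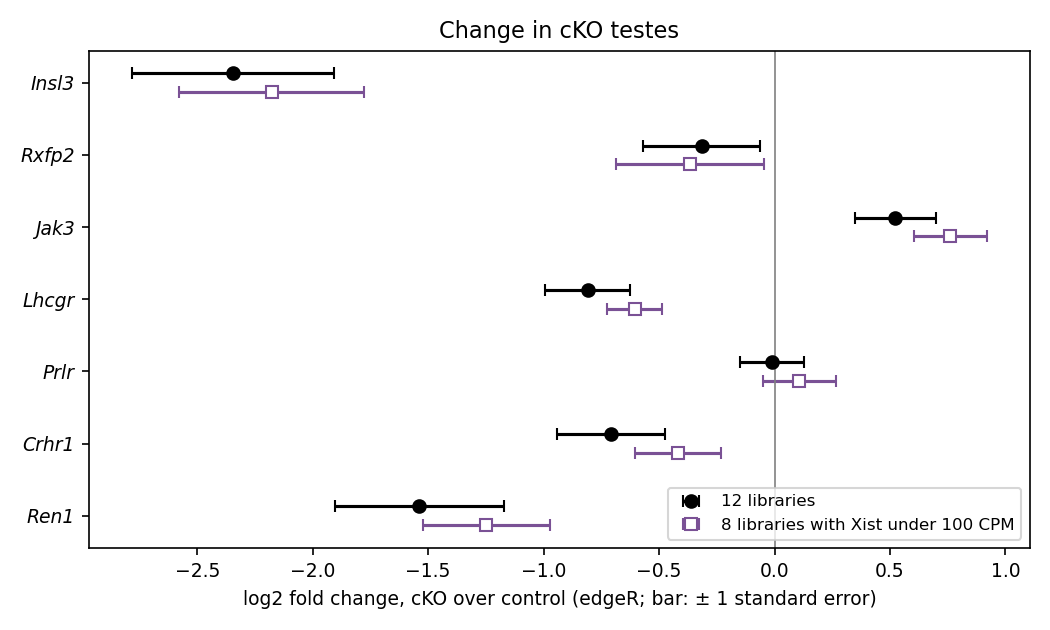
Log2 fold change of cKO over control for the 7 genes, from edgeR, with bars of 1 standard error on each side. Circles use all 12 libraries and squares the 8 libraries with Xist under 100 CPM; Insl3 (-2.35 and -2.18), Ren1 and Lhcgr lie left of 0 in both, Jak3 lies right of 0, and Prlr lies at 0.

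The 7 RNAs differed in level by more than an order of magnitude when expressed per kilobase of the exonic bases that belong to each gene alone. In controls the order of mean levels was Ren1 (116.9 CPM per kb), Insl3 (32.6), Lhcgr (8.27), Crhr1 (7.16), Prlr (4.87), Rxfp2 (1.91) and Jak3 (1.62). Neighbours in this order overlapped across libraries for Lhcgr and Crhr1, for Crhr1 and Prlr, and for Rxfp2 and Jak3. In cKO the order of mean levels was Ren1 (40.1 CPM per kb), Insl3 (6.04), Prlr (4.80), Lhcgr (4.69), Crhr1 (4.33), Jak3 (2.33) and Rxfp2 (1.55), and every neighbouring pair overlapped. Insl3 lay between 9.76 and 69.2 CPM per kb in controls and between 1.24 and 12.5 CPM per kb in cKO. Lengths were taken from GENCODE while the counts were made on RefSeq models, and the RefSeq start of Insl3 (71689252) lies inside GENCODE exon 1, so its counted part is shorter than the 219 bases used and its level on this scale is understated in both groups. It also rests on the assignment of shared reads described above.

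Steroidogenic genes of fetal Leydig cells gave a reference within each library for Insl3 and Lhcgr. Of 8 such genes 4 were called lower, against 4.85% of all genes: Cyp17a1 (log2 fold change -1.15, edgeR adjusted p 0.0110), Cyp11a1 (-0.91, 0.0152), Fdx1 (-0.67, 0.00170) and Hsd3b1 (-0.61, 0.0365). Cyp11a1 makes pregnenolone from cholesterol, Cyp17a1 and Hsd3b1 act on the way from it to androgens, and Fdx1 carries electrons to the mitochondrial enzymes. Star, which brings cholesterol into mitochondria, had a log2 fold change of -0.19 (adjusted p 0.454 by edgeR), and Nr5a1 one of -0.31 (edgeR adjusted p 0.0517). The median over the 8 genes was -0.46, against 0.0030 over all genes tested.

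The log2 ratio of Insl3 to the mean of Star, Cyp11a1, Cyp17a1 and Hsd3b1, with 0.5 CPM added to each value, ran from -6.98 to -5.16 in controls and from -8.001 to -6.79 in cKO. Of the 6 cKO pools 4 lay under every control, and cKO 1 and cKO 6 lay just inside the control range. The difference between group means was -1.27 (two-sided exact permutation p = 0.00649 over 924 splits), so Insl3 was lower by more than these genes were. Its size depended on the pseudocount, since Insl3 was near 1 CPM in cKO: the difference was -0.63 with 2 CPM added (two-sided exact permutation p = 0.0281) and -1.63 with 0.1 CPM added (two-sided exact permutation p = 0.00649). The difference in the 8 libraries with low Xist was -1.29 (two-sided exact permutation p = 0.0357).

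Lhcgr stayed much closer to the same genes. Its log2 ratio ran from -3.12 to -2.77 in controls and from -3.15 to -2.99 in cKO, with 2 cKO pools under every control. The difference was -0.12 (two-sided exact permutation p = 0.0541 over 924 splits). In the 8 libraries with low Xist it was -0.03 (two-sided exact permutation p = 0.571). The choice of reference mattered here. Against Nr5a1, Scarb1, Fdx1 and Fdxr, of which only Fdx1 was called, the difference was -0.73 (two-sided exact permutation p = 0.00216). Leaving out control 2, control 4 or cKO 1 also brought the p for the first reference to between 0.0130 and 0.0433 (exact permutation test).

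**Figure D4:**
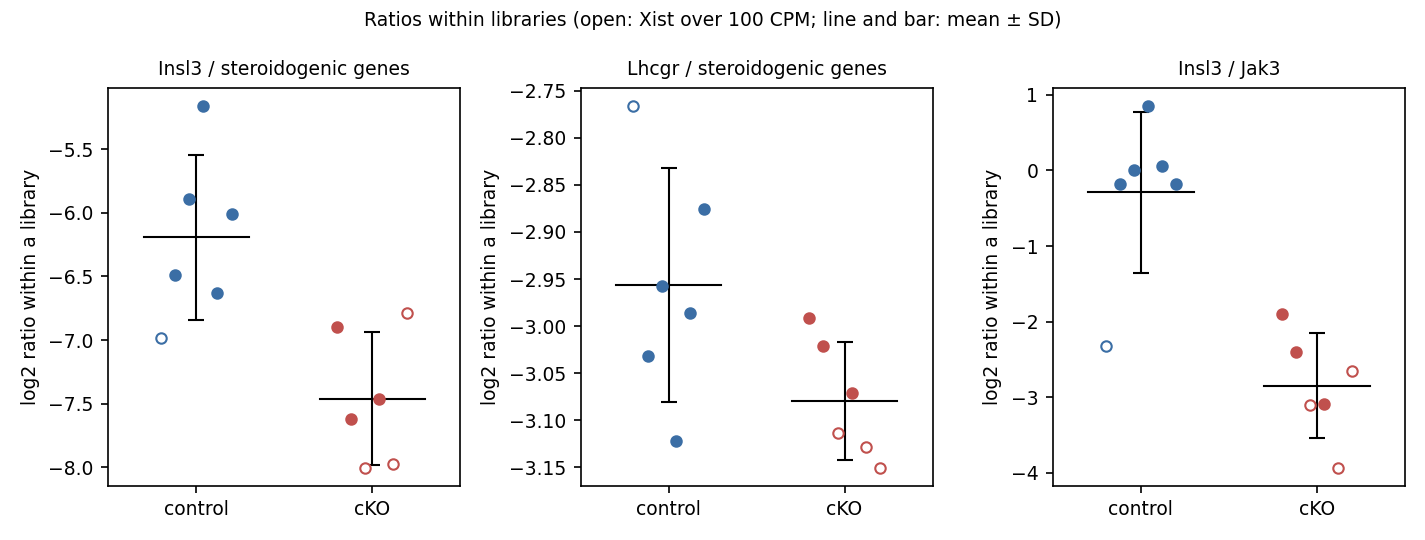
Log2 ratios within each library of Insl3 and of Lhcgr to the mean of 4 steroidogenic genes, and of Insl3 to Jak3, each on its own linear axis. Points are libraries, open where Xist is over 100 CPM, with lines and bars for the mean ± SD; the difference between groups is -1.27 for Insl3, -0.12 for Lhcgr and -2.55 for Insl3 over Jak3.

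The genes most like Insl3 and Lhcgr over the 12 libraries were ranked by Pearson correlation of log2 CPM, among the 14261 genes whose mean reached 1 CPM. For Lhcgr they included Prss35 (r = 0.99), Cyp17a1 (0.99), Sfrp1 (0.99) and Cyp11a1 (0.98). Within controls alone r was 0.960 for Cyp17a1 and 0.860 for Cyp11a1, and within cKO alone it was 0.990 and 0.998. For Insl3 they were Sox11 (r = 0.96), Cebpb (0.95), Dact3 (0.95), H1f2 (0.95) and Mex3b (0.94), with within-group values from 0.71 to 0.97, and no steroidogenic gene was among them. Spearman's rho over the 12 libraries lay between 0.89 and 0.97 for these 9 genes, and r without the 2 libraries farthest from the median lay between 0.88 and 0.98. All 9 were called lower in cKO by edgeR (Cebpb, H1f2 and Mex3b not in the low-Xist libraries), so the pooled values include the difference between groups, and these correlations describe 12 libraries that also differ in depth and Xist.

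The genes around these receptors were read from the same fit, by lists of pathway members. The 7 listed transcription factors known to act on the Insl3 promoter (among them Nr5a1, Nr4a1, Gata4, Nr0b1, Klf6 and Jun) were all tested. The list leaves out Nr2f2 itself, which lay between 163 and 186 CPM in controls and between 50.2 and 118.6 CPM in cKO. Earlier work cited by the study reports INSL3 as a direct target of NR2F2 in Leydig cells. Of the 7, edgeR called 0 (8.13% of all genes), with 2 (Nr5a1 and Jun) at an unadjusted p under 0.05. DESeq2 called Nr5a1 lower (adjusted p 0.0164), where it called 6.27% of all genes lower. Gata4, a regulator of steroidogenic genes, had a log2 fold change of 0.06 and Nr4a1, which responds to cyclic AMP, one of 0.10. The median over the 7 listed factors was -0.04, against 0.0030 over all genes tested.

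Of 35 genes of glycoprotein hormones, their receptors and cyclic AMP signalling, 33 were tested, 3 were lower and 4 higher, beside 4.85% lower and 3.28% higher over all genes tested. In the low-Xist libraries 1 was lower (Adcy2) and 7 were higher (Lgr4, Lgr5, Lgr6, Adcy6, Adcy8, Prkar1b and Pde8a), beside 3.39% and 3.68% over all genes. Fshr, the follicle-stimulating hormone receptor gene of Sertoli cells, fell from 3.83 ± 1.19 to 1.76 ± 0.785 CPM (SD, n = 6), a log2 fold change of -1.12 (adjusted p 0.0283 by edgeR), a call that was lost in the 8 libraries with low Xist (-0.83, edgeR adjusted p 0.0747). Of 9 adenylyl cyclase genes, Adcy2 (-0.62, edgeR adjusted p 0.00382) and Adcy5 (-0.65, edgeR adjusted p 0.0156, but -0.48 and 0.0930 in the low-Xist libraries) fell, and Adcy8 rose by 1.72 (edgeR adjusted p 0.00277) from 0.359 CPM. Adcy7, the cyclase gene with the highest control level after Adcy6, had a log2 fold change of -0.62 (adjusted p 0.0836 by edgeR). DESeq2 called Adcy7 lower (adjusted p 0.0331). Lgr4 (0.32, edgeR adjusted p 0.0160) and Lgr6 (1.04, edgeR adjusted p 0.0333), which encode R-spondin receptors of the same receptor family as LHCGR, rose, as did the phosphodiesterase gene Pde8a (0.60, edgeR adjusted p 0.0172). The gene of the stimulatory G protein subunit, Gnas, had a log2 fold change of 0.10, and protein kinase A subunit genes lay between -0.27 and 0.26. RNA of the gonadotropin subunit genes was at or near 0, since Fshb had 0 counts in all 12 libraries and Lhb was at 0.486 ± 0.207 CPM in control (SD, n = 6).

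Of 21 genes of prolactin and growth hormone signalling, 19 were tested, 2 were lower and 0 higher, where 4.85% of all genes were lower and 3.28% higher. Jak1 fell by 0.18 (edgeR adjusted p 0.0489; log2 fold change -0.16 and adjusted p 0.186 in the low-Xist libraries) and Socs3, a feedback inhibitor of JAK signalling, by 0.38 on the log2 scale (edgeR adjusted p 0.0160), from 15.6 ± 1.58 to 11.9 ± 0.8295 CPM (SD, n = 6). Jak2, the kinase of the prolactin receptor, had a log2 fold change of -0.18 (adjusted p 0.272 by edgeR), Stat5a one of 0.42 (edgeR adjusted p 0.103) and Stat5b one of 0.00. Prl itself was at 0 in every control and at most 0.0593 CPM in cKO. Thus neither Prlr nor the kinase and transcription factors closest to it passed the test.

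Of 10 genes of corticotropin-releasing hormone and ACTH signalling, 4 were tested and 1 was called, with 3.28% of all genes higher and 4.85% lower. Mc2r, the ACTH receptor gene, rose from 5.79 ± 1.96 to 9.97 ± 0.881 CPM (SD, n = 6), a log2 fold change of 0.81 (adjusted p 0.0157 by edgeR), opposite in sign to Crhr1. Mrap, which encodes the partner that carries this receptor to the cell surface, had a log2 fold change of -0.02. The ligand genes Ucn and Ucn3 had 0 counts in all 12 libraries, and Crh was at 0 in controls and at most 0.0361 CPM in cKO. Of the 3 adrenal-like markers Mc2r was the only one called by edgeR, while Cyp11b1 had a log2 fold change of 0.54 (adjusted p 0.163 by edgeR) and Cyp21a1 one of -1.03 (edgeR adjusted p 0.0754), which DESeq2 called lower (adjusted p 0.0399).

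Of 12 further genes of the renin-angiotensin system, 10 were tested, 2 were lower and 0 higher, set against 4.85% and 3.28% of all genes. Agt, which encodes the renin substrate angiotensinogen, fell from 15.4 ± 3.36 to 8.87 ± 2.66 CPM (SD, n = 6), a log2 fold change of -0.76 (adjusted p 0.0279 by edgeR). In the 8 libraries with low Xist 0 genes of this list were called lower, Agt having an edgeR adjusted p of 0.0563, and Ace and Lnpep were called higher instead, set against 3.39% lower and 3.68% higher among all genes. The angiotensin receptor genes Agtr1a (0.04) and Agtr2 (-0.19) and the aminopeptidase gene Enpep (-0.06) had small log2 fold changes.

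Of 19 other hormone and growth factor receptor genes, 18 were tested, 1 was lower and 1 higher, near the 4.85% and 3.28% of all genes. Oxtr, the oxytocin receptor gene, fell by 0.77 on the log2 scale (edgeR adjusted p 0.0492), and Avpr1a, a vasopressin receptor gene, rose by 0.88 (edgeR adjusted p 0.0213), from 1.94 ± 0.571 to 3.62 ± 0.780 CPM (SD, n = 6) without overlap. The call for Oxtr was lost in the 8 libraries with low Xist (-0.45, edgeR adjusted p 0.118). Igf1r, the receptor gene for insulin-like growth factors, had a log2 fold change of 0.09 and Insr, the insulin receptor gene, one of 0.02. The median over the 18 genes was 0.05.

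**Figure D5:**
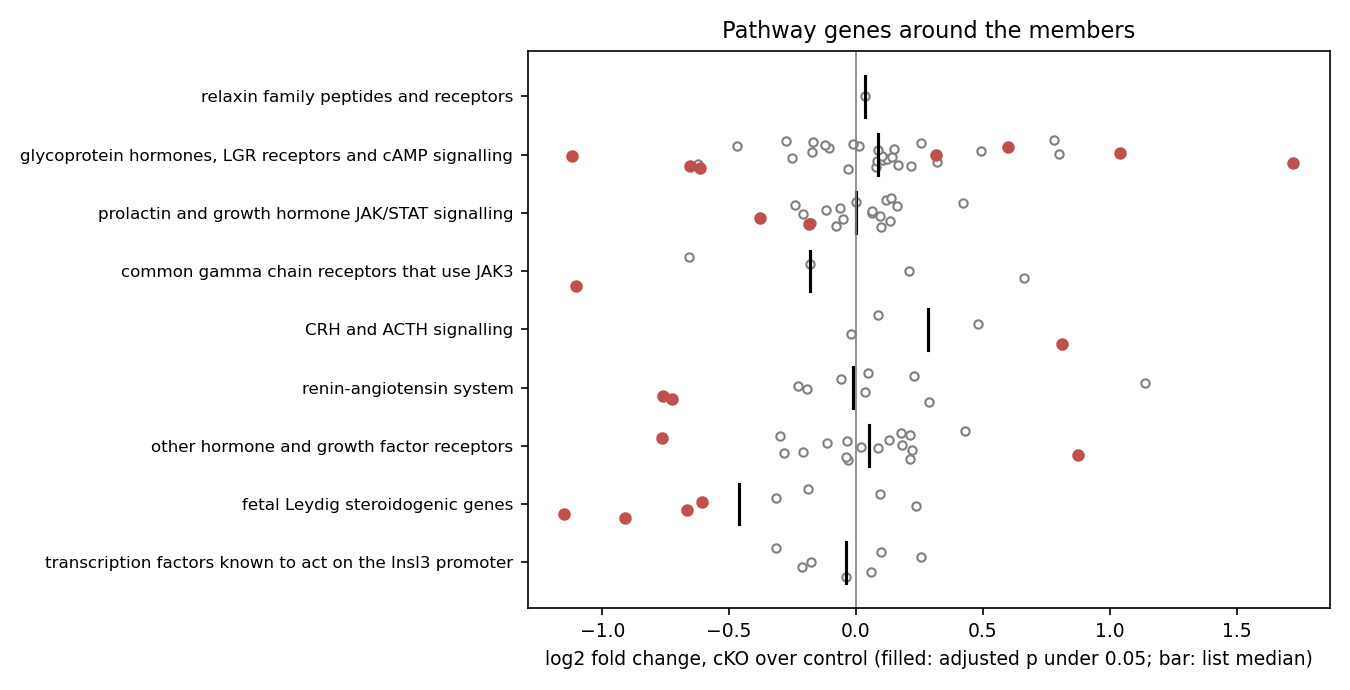
Log2 fold change of cKO over control for every tested gene of 9 pathway lists, 1 row per list on a linear axis, filled where the edgeR adjusted p is under 0.05, with a bar at each list's median. The steroidogenic genes have the lowest median of the 9 lists (-0.46), and the cyclic AMP list holds called genes on both sides of 0.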

How the data were processed

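RNA-seq libraries were made with a stranded mRNA protocol from 12 pools of 3 testes each, and all 12 were used, grouped by genotype. The authors trimmed read pairs (Trim Galore 0.6.7), aligned them to mm10 (STAR 2.5) and counted them by strand on RefSeq Curated gene models (featureCounts of Subread 1.5.0-p1). They deposited raw counts per gene, with no normalization. Depth ran from 7044531 to 59404778 counts per library. Some genes rested on few counts in the shallow libraries, such as Insl3 (2 counts) and Crhr1 (34 counts) in cKO 5. The effect of depth on precision was not tested.

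Counts were tested in R 4.3.3 with edgeR 4.0.16 (TMM scaling, filterByExpr at min.count 10 and min.total.count 15, glmQLFit and glmQLFTest, no covariate, Benjamini-Hochberg adjustment over all genes, threshold 0.05). The standard error is the size of the log2 fold change divided by the square root of F. CPM used TMM-scaled totals, and log2 CPM a prior count of 2. Ratios within libraries were tested by exact two-sided permutation. Alternatives were DESeq2 1.42.0 (the study used DESeq2 in another version), limma-voom 3.58.1, other scalings, filters and pseudocounts, a replicate block, the 8 libraries with Xist under 100 CPM, log2 Xist as a covariate, and leaving out each library. Fits were also run on counts simulated from these data, and the outcome is not reported here.

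Named genes were the 7 members, the called genes of each pathway and marker list with other listed genes beside them, the 5 genes most correlated with Insl3 and with Lhcgr, Nr2f2, and Xist and Y-linked genes. The members and lists were chosen with earlier results of these data known. Some genes that this rule selects are not reported by name.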

Additional observations from a re-analysis of the deposited data

Results flagged for a closer look

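Ren1 in control 2 stood apart from its group, at 300.4 CPM against 161.8 to 184.4 CPM in the other 5 controls. Its gap to the nearest control was 0.837 of the range of the group, above Dixon's 95% critical value for 6 libraries. It was the only such case among 14 groups (7 genes in control and cKO). Chance gives about 1 in 20 for each group tested, so 1 case among 14 groups can arise by chance. Without control 2 the Ren1 log2 fold change was -1.37, with an edgeR adjusted p of 0.0480. The cause of the high value was not tested.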

How the results depend on the processing

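Insl3, Lhcgr and Ren1 were called lower by the tool used under each of the 21 alternatives, with log2 fold changes from -2.67 to -1.90, from -0.91 to -0.61 and from -1.76 to -1.25. Rxfp2 was called in none (-0.54 to -0.17). The count of genes called was 1919 by DESeq2 and ran from 816 (without cKO 4) to 3106 (without control 1) when 1 library was left out. Jak3 was called higher by DESeq2 (0.53), in the 8 libraries with low Xist (0.76) and without control 1, with a range of 0.43 to 0.72 over libraries left out. Crhr1 was called lower by DESeq2 (-0.71), limma-voom (-0.79) and with a replicate block (-0.78). Prlr, called in no fit, turned positive with library totals as scaling (0.024), limma-voom (0.025), the replicate block (0.0042), log2 Xist as covariate (0.047) and in the 8 libraries (0.11), and ran from -0.084 to 0.094 over libraries left out. The log2 ratio of Lhcgr to steroidogenic genes passed the test with a pseudocount of 0.1 CPM (-0.13) and with the other reference genes (-0.73), and ran from -0.16 to -0.085 over libraries left out. In the 8 libraries the number of listed genes called was 1 for prolactin and growth hormone signalling, 0 for common gamma chain receptors and 1 for other receptors; for Insl3 promoter factors it was 1 by DESeq2. Leaving out 1 library ended the call in at least 1 fit for Fshr, Lgr6, Jak1, Il15ra, Agt, Oxtr, Avpr1a, Hsd3b1, H1f2 and Mex3b. The causes of these changes were not tested.

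The replicate numbers in the labels are shared by the groups, but libraries of the same number did not deviate together (correlations from -0.33 to 0.24, with no library closest to its own number), so they were not taken as pairs. With the replicate block edgeR called 931 genes. Among named genes Fshr, Jak1, Socs3, Il15ra, Agt, Hsd3b1, H1f2 and Mex3b were not called in that fit. For the log2 ratios of Insl3 to steroidogenic genes (-1.27) and to Jak3 (-2.55), the block leaves the difference as it is by construction, and the exact permutation p was 0.0625 for each over 64 sign changes.

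Insl3 rests on 2 to 322 counts per library and on a gene model mostly shared with Jak3. Within groups, pools differed in Insl3 level, in Nr2f2 RNA and in Xist. The extent of Nr2f2 deletion was not measured in these libraries.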
